A study of Homo sapiens with 3 samples.

Results

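The major histocompatibility complex (MHC) of chromosome 6 was examined in the capture design of a study of splicing branchpoints in K562, a line of human leukaemia cells. The members were the design intervals that lay wholly between positions 28500001 and 33400000 of chromosome 6 in the genome build hg19, and there were 1884 of them among 377858 in the whole list (0.499%). One group of 3 libraries was made, replicates 1, 2 and 3 of untreated K562 total RNA, which the labels call biological replicates and which carried ERCC spike-in RNA at 1%, 1% and 1.08%. The list belongs to all 3 libraries and holds no value per library, so it shows where targets were placed and not how much RNA was captured. Each interval has a position, a width and a whole-number score from 0 to 125. What the score measures is not stated in the labels or the file. A fixed list has no replicate error, so the counts, shares and medians are a census and no test was made.

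The MHC is the gene-dense region best known for the HLA genes. Class I HLA proteins show fragments of a cell's own proteins to cytotoxic T cells and natural killer cells, and class II HLA proteins, made mainly by antigen-presenting cells, show fragments of taken-up proteins to helper T cells. The class III stretch between them holds no HLA genes but complement components, cytokines and many genes of general cell function. K562 cells are known for very low surface HLA class I and serve as a standard target for natural killer cells. An intron is removed after its 5′ end has been joined to the branchpoint, a base near its 3′ end, and the design targeted 100 nt at both ends of introns.

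The region was divided into extended class I (28500001 to 29600000, 116 intervals), class I (up to 31400000, 564), class III (up to 32200000, 712), class II (up to 33200000, 387) and extended class II (up to 33400000, 104). One interval crossed an inner bound. Gene names were attached by spacing. The intron ends of each gene of GENCODE release 29 were laid out as targets of 100 nt without exon parts, and a gene was attached where at least 4 of these, and at least 50%, fell on deposited intervals at a common shift, with both edges within 1 nt. No coordinate of that annotation, which lies on another build, was used as a position. In this way 138 genes, 121 of them protein-coding, took up 1536 of the 1884 intervals (81.5%), and all 138 had the same shift within 1 nt. Of 23874 genes of other chromosomes tried on the same intervals, 7 met the rule.

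Class III was the most densely targeted sub-block. It carried 89.6 targeted kb per Mb, against 40.4 in class II and 31.8 in class I, a ratio of 2.22 to class II and 2.82 to class I. Extended class II carried 52.4 targeted kb per Mb and extended class I 10.6, close to the 10.07 of the rest of chromosome 6. With 16.3% of the region's length, class III held 37.8% of its intervals. Windows of 0.8 Mb were laid on a fixed grid over all chromosomes outside the block. Among the 3507 that held an interval, none was denser than class III, and their median was 10.2 targeted kb per Mb. The whole region reached 39.1 targeted kb per Mb, and 11 of 609 windows of its length that held an interval were denser.

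The 2 fullest windows of 100 kb lay in class III and at the end of class II. The window from 31900001 to 32000000 held 160 intervals, the most of any, and took in intervals of SKIV2L, CFB and both C4 genes. The window from 33100001 to 33200000 held 129, and 93 of these were attached to COL11A2, a chain of the fibrillar collagen XI. In the plot of targets along the region both stand above the windows beside them. Class I had windows of 87, 83 and 78 intervals between 30500001 and 30900000, more than the 70 and 60 of the class III windows from 31800001 and 31500001. In contrast, 2 of the 49 windows held no interval. Wide stretches without a target lay in the extended class I and class I blocks. They ran from 28616672 to 28806097 (189 kb, nearest attached genes ZBED9 and TRIM27) and from 30314490 to 30458293 (144 kb, up to HLA-E). Others ran from 28973344 to 29092124 (119 kb, nearest attached gene before it ZNF311) and from 29096434 to 29191829 (95.4 kb).

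**Figure D1:**
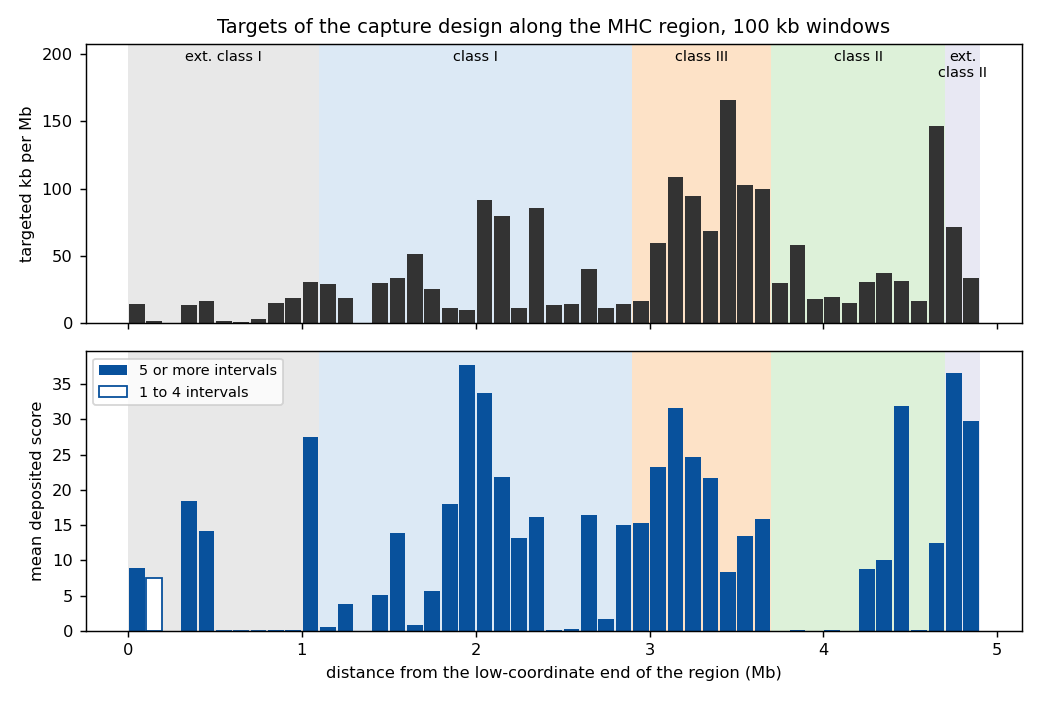
Targeted kb per Mb (upper bars) and mean deposited score (lower bars, linear axes) in 100 kb windows against distance from the low-coordinate end of the region in Mb, with the 5 sub-blocks shaded; open bars mark windows of 1 to 4 intervals. The window from 31900001 to 32000000 is the tallest of the upper bars (160 intervals), and the low-coordinate part of class II has bars near 0 in the lower plot.

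Targets of the MHC were less uniform in width than those elsewhere. Exactly 100 nt was the width of 69.9% of its intervals (1317 of 1884), against 87.7% over the whole list and 92.9% on the rest of chromosome 6. Widths of 102 nt or more made up 14.8% (278 intervals) against 3.37% of the whole list, and 216 of the 223 that were attached to a gene were complete short introns, in which both end targets run together. Of 597 windows of the same length with at least 50 intervals, 1 had a larger share of such wide intervals. The share was 14.4% in class I, 15.6% in class III and 14.5% in class II, and extended class II had 26 such intervals among 104. In class II, 31 of the 56 belonged to COL11A2, and without this gene the share was 8.503%.

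The narrower class of 70 to 95 nt behaved differently between sub-blocks. It made up 9.55% of class III (68 intervals), 7.69% of extended class II (8), 3.90% of class I (22), 3.36% of class II (13) and 0.862% of extended class I (1). Intervals of this class were 5.94% of the whole region and 3.08% of the whole list. Most of these targets were complete introns where a gene could be attached, 40 of 54 in class III. In all, 308 of the 1536 attached intervals (20.1%) were whole introns, with widths from 71 to 199 nt and a median of 119 nt. Class III had 133 of them, among them 12 introns each of SKIV2L, a helicase of RNA decay, and of EHMT2, a histone methyltransferase. COL11A2 had 36 and VARS2, the mitochondrial valyl-tRNA synthetase, had 17.

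The widest intervals were whole introns as well. Those of 199 nt lay in class III, from 31901744 to 31901942 in the complement gene C2 (score 1), from 31975249 to 31975447 in CYP21A1P (score 0) and from 32007984 to 32008182 in CYP21A2 (score 4). The last 2 genes are the pseudogene and the working copy of steroid 21-hydroxylase, an enzyme of cortisol synthesis. They were followed by introns of 198 nt in GPSM3 (32160050 to 32160247, score 27) and COL11A2 (33138388 to 33138585, score 0).

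By design, a gap between neighbouring targets can be an exon or the middle of an intron. Of all gaps in the region, 74.3% were at most 1000 nt, against 58.6% over the whole list, and the median of these 1400 gaps was 162 nt (quartiles 88 and 333). The median was 155 nt in class I, 179 nt in class III, 206 nt in extended class II and 116 nt in class II, whose lower quartile was 55 nt. The median of class II moved with COL11A2. Its 93 intervals were 24.0% of class II, and 27 of its 88 gaps (30.7%) were exactly 55 nt. Fibrillar collagen genes are known for many exons of a few repeated lengths. Further gaps of 109 nt (7) and 46 nt (6) recurred in COL11A2. Edges of predicted and deposited targets were matched only within 1 nt, so these gap lengths need not equal exon lengths. Outside this gene, no gap of 55 nt was found in class II, whose median gap was then 182 nt, whose lower quartile was 57 nt and whose density was 29.5 targeted kb per Mb.

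Scores separated class II from its neighbours. Above 0 scored 78.1% of class III intervals (556 of 712), 72.7% of class I (410 of 564), 61.2% of extended class I (71 of 116) and 98.1% of extended class II (102 of 104), against 52.8% of the whole list. In class II the share was 32.04% (124 of 387), which is 46.05 percentage points below class III (29.5 points with bounds 100 kb higher, and 17.4 points for scores of 19 or more). The difference of class III from class I was 5.39 points, and its sign changed when the bounds were moved by 100 kb to higher coordinates (-0.75 points). Over all chromosomes, 2067 windows as long as class II held 50 intervals or more, and 523 of them had a smaller share above 0. Without COL11A2 the share in class II was 37.1%.

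High scores of 19 or more went to 28.1% of the region's intervals (530), compared with 10.4% of the whole list. They made up 64.4% of extended class II (67 of 104), 32.16% of class III (229), 27.1% of class I (153), 19.8% of extended class I (23) and 14.7% of class II (57). The mean score was 34.6 in extended class II, 18.7 in class III, 15.01 in class I, 12.2 in extended class I and 8.45 in class II, with medians of 28, 6, 7, 3 and 0. Over the whole region the mean was 15.97 and the median 4, against 6.80 and 1 over the whole list, and 11 of 597 windows of its length had a higher mean. Scores of neighbours up to 1000 nt apart were alike (Spearman's rho 0.84 over 1400 pairs, which share genes, against 0.80 on chromosome 6).

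**Figure D2:**
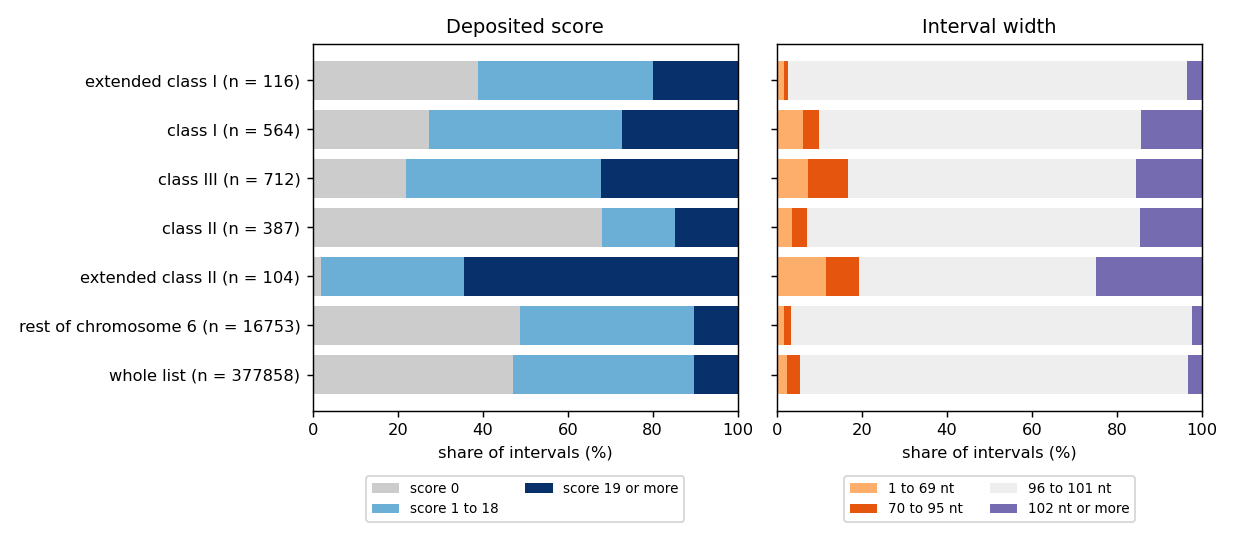
Share of intervals in % by deposited score (left) and by width (right) in the 5 sub-blocks, the rest of chromosome 6 and the whole list, with the number of intervals of each. Class II has the largest part at score 0 (68.0%) and extended class II the smallest (1.92%), while intervals of 102 nt or more take 14.4% of class I, 15.6% of class III, 14.5% of class II (8.503% without COL11A2) and 3.37% of the whole list.

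Scores also differed by width. In the region, intervals of 70 to 95 nt had a mean score of 22.2 (median 12) and those of 102 nt or more 21.3 (median 9), against 14.2 (median 3) at 100 nt. Over the whole list these means were 12.8, 13.9 and 6.27. In class II the narrow class was not higher, with a mean of 5.08 for its 13 intervals against 6.97 at 100 nt. Whole introns of attached genes had a mean score of 25.1 and a median of 14.5, and the other attached intervals 16.1 and 5. The 5 highest scores of the region lay in VARS (31747314 to 31747384, 71 nt, score 125), RGL2 (33264103 to 33264190, 88 nt, score 123), WDR46 (33255496 to 33255595, 100 nt, score 122), PRRC2A (31602756 to 31602908, 153 nt, score 121) and RXRB (33163244 to 33163345, 102 nt, score 120). All of these were whole introns except the interval of WDR46, which was a 3′ end.

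Genes were compared by the mean score of their attached intervals. Over the 138 genes its median was 12.5 and its range 0 to 78.3, and it was under 1 in 40 genes and 19 or more in 57 (41.3%). Of 87 genes in 9 fixed groups, 65 were attached, C4A and C4B were uncertain, and 20 were not attached, 10 of these because fewer than 4 targets were predicted. The groups were chosen with earlier results of these data known, so their contrasts are not independent of the scores. The genes that were not attached include HLA-B and HLA-C, of which 2 and 4 targets were predicted, HLA-DQA1, DDX39B and TUBB. Their scores were not analysed by gene here. The attached gene ATP6V1G2-DDX39B (7 intervals, mean 46.9), whose name includes DDX39B, counts among the 138.

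Among the class I HLA genes described here, HLA-E had the highest scores. HLA-E, which shows leader peptides of other class I proteins to natural killer cells, had scores of 17, 35, 34, 99, 36, 51 and 63 along its 7 intervals from 30458294 to 30460525. The non-classical HLA-F had 1 score above 0 among 5 (a score of 2, mean 0.40), and all 6 intervals of HLA-G, known from the placenta, scored 0. No score of HLA-F or HLA-G reached the lowest score of HLA-E. These genes are related in sequence, and whether this bears on their scores was not tested.

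The class I related genes MICA and MICB, stress-induced ligands of a natural killer cell receptor, were higher than HLA-F and HLA-G. MICA ranged from 3 to 40 over 7 intervals (mean 15.4) and MICB, which lies inside the class III bounds used here, from 4 to 43 over 9 (mean 16.4). The pseudogene HLA-L had 1 interval above 0 among 8 (mean 0.25).

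Class II HLA genes were mostly at score 0. Of the 86 intervals of 11 attached genes, 15 scored above 0 (17.4%, against 52.8% of the whole list), and 9 of the 11 genes had a mean under 1. Every interval scored 0 in HLA-DRA (8 intervals, 32407811 to 32412428), HLA-DRB5 (10), HLA-DRB1 (10, 32546882 to 32557418), HLA-DQB1 (8), HLA-DQA2 (6), HLA-DQB2 (8) and HLA-DOA (5). These encode chains of HLA-DR, the beta chain of HLA-DQ, relatives of the HLA-DQ chains and a chain of the modulator HLA-DO. The alpha chain gene of HLA-DQ, HLA-DQA1, was not attached. The pseudogene HLA-DRB6 had 1 score of 1 among 9, and HLA-DPB1, a chain of HLA-DP, scored 1 and 2 in a pair of its 9 intervals. The number of DRB genes differs between human haplotypes, and the design follows the reference haplotype.

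HLA-DOB and HLA-DMA were the exceptions among the class II genes. HLA-DOB, the partner chain of HLA-DOA, scored above 0 in all 8 intervals, with 11, 1, 1, 11, 7, 21, 10 and 3. From its interval at 32782379 on, HLA-DOB overlaps the attached gene AL669918.1, which runs to 32806428 and scored above 0 in all 20 intervals. The HLA-DOB intervals at lower coordinates scored 11, 1 and 1. HLA-DMA, a chain of the peptide-exchange factor HLA-DM, scored 0, 1, 1, 2 and 11. Its score of 11 lay at 32935821 to 32935920, whereas its other intervals end at 32920725 and the first BRD2 interval starts at 32936872. Whether AL669918.1 or BRD2 accounts for scores of these class II genes was not tested. HLA-DR and HLA-DQ genes held 2 of the 5 longest runs of score 0 in the region. One run of 42 intervals from 32525592 to 32731149 (206 kb) spanned HLA-DRB6 to HLA-DQB2, and one of 36 from 32364166 to 32522395 (158 kb) spanned BTNL2 to HLA-DRB6. The longest by number had 46 intervals in C6orf10 (32270407 to 32333113), and COL11A2 held a run of 21. One run of 19 intervals from 30042899 to 30113967 took in TRIM31 and part of TRIM40. It began with the single RNF39 interval at 0, while the other RNF39 scores were 55, 33, 20, 37 and 72.

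The antigen processing genes between and beside the class II genes were mixed. TAPBP (tapasin, which loads class I molecules) had the highest mean of the 5, 47.6, with scores of 119, 89, 5, 6, 44, 51 and 19. TAP2, a subunit of the peptide transporter of the endoplasmic reticulum, ranged from 2 to 74 over 18 intervals (mean 26.6). Its partner TAP1 ranged from 1 to 18 over 11 intervals (mean 5.64). The immunoproteasome subunits PSMB8 (0, 0, 3, 4 and 2) and PSMB9 (2, 0, 0, 0 and 5) were lower. All of these targets except 5 scored above 0 (41 of 46), or 89.1% against 52.8% of the whole list.

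The attached complement and cytokine genes of class III, without the uncertain C4 genes, had low gene means, from 0 to 3.17. Their intervals scored above 0 in 53.1% (17 of 32) of the complement group and 57.7% (15 of 26) of the cytokine and leukocyte group, near the 52.8% of the whole list. C2 had a mean of 1.37 over 19 intervals, with 6 above 0, and the complement activator CFB a mean of 2.38 over 13, with 11 above 0. TNF scored 1, 0, 0, 2 and 1, and all 4 intervals of its neighbour LTA, another cytokine of that family, scored 0. NCR3, a natural killer cell receptor, scored 1, 3, 1, 0 and 0. LY6G5C and LY6G6C, of the LY6 surface protein family, had means of 3.17 and 2.17. None of the 26 intervals of the cytokine and leukocyte group scored 19 or more, against 10.4% of the whole list.

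The C4 genes form a tandem duplication, and the spacing of C4A fitted C4B nearly as well (40 intervals at the best place and 39 at the other), so they are reported as uncertain. The copy at 31949951 to 31970175 had a mean score of 2.80 and that at 31982689 to 32002912 had 3.35. Of 32 intervals at the same place within both copies, 23 had equal scores, and the largest difference was 5.

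Genes of RNA handling, chromatin and general cell function were at the other end. All 235 intervals of the 12 attached RNA and chromatin genes scored above 0, and 61.7% scored 19 or more (145), against 52.8% and 10.4% of the whole list. Their gene means ran from 17.0 in the splicing helicase DHX16 to 53.04 in PRRC2A, an RNA-binding protein, with a median of 34.1. The translation factor ABCF1 had a mean of 50.9 (27 intervals), the bromodomain protein BRD2 51.2 (19), the polycomb subunit RING1 52.1 (8) and the nuclear receptor RXRB 43.0 (10). BRD2 lies between HLA-DMA and HLA-DOA, whose means were 3.00 and 0.

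The 16 attached housekeeping genes had gene means from 5.38 in ATAT1, a tubulin acetyltransferase, to 78.3 in SLC39A7, a zinc transporter. SLC39A7 scored 41, 69, 75, 102, 93 and 90, the highest gene mean of the region. GPANK1 followed with 67, 40, 116, 78 and 47 (mean 69.6), VARS, the cytosolic valyl-tRNA synthetase, with a mean of 55.5 over 16 intervals, and CSNK2B, a subunit of casein kinase, with 47, 5, 50 and 108. In 15 of the 16 genes the mean was 19 or more, against 41.3% of all attached genes, which include these 16. VARS2 had a mean of 22.1 over 51 intervals.

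Matrix and signalling genes included the longest series of targets in the region. Of their 279 intervals, 44.1% scored above 0 and 10.04% scored 19 or more, against 52.8% and 10.4% of the whole list, and 2 of the 7 genes had means of 19 or more. COL11A2 had 93 intervals from 33131596 to 33159934, of which 15 scored above 0, and none above 6. NOTCH4, a receptor of blood vessel lining, had 42 from 32164199 to 32191631, with 13 above 0 and a highest score of 11. MOG, a myelin protein, had 1 of 13 above 0. TNXB, which encodes the matrix protein tenascin-X, had 70 intervals, of which 35 scored 0 (mean 6.60, median 0.50). The collagen receptor DDR1 had a mean of 9.20 over 25 intervals, AGER, a receptor of glycated proteins, 21.3 over 6, and GABBR1, a receptor subunit for the transmitter GABA, 28.8 over 30.

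**Figure D3:**
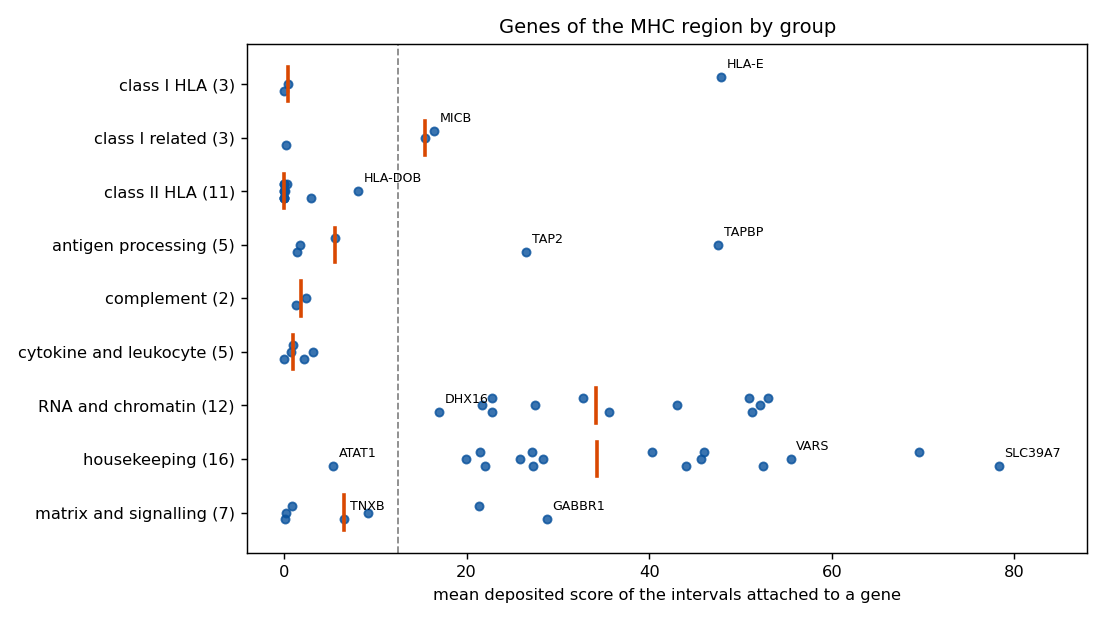
Mean deposited score of the intervals attached to a gene (linear axis), 1 point per gene, for the 9 fixed groups with the number of genes drawn; orange bars are group medians and the dashed line is the median of all 138 attached genes (12.5). Class II HLA genes lie at 0 to 8.13, whereas the RNA and chromatin group begins at 17.0.

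Among genes with at least 8 attached intervals (71), the 5 highest means were those of VARS, PRRC2A, RING1, BRD2 and ABCF1. The 5 lowest were those of HLA-DQB1, HLA-DQB2, HLA-DRA, HLA-DRB1 and HLA-DRB5, all at 0, taken in alphabetical order. TRIM31, with 8 intervals at 0, tied with them.

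Not every predicted intron end had a deposited interval. Of 1941 predicted targets of the 138 genes, 1694 were found, 90 overlapped an interval with other edges and 157 (8.09%) had none. The share without an interval was 9.73% in class III, 6.76% in class I, 4.56% in class II and 8.91% in extended class II. It was highest in extended class I, 16.9% (11 of 65 targets), where the median gene mean score was 0.25 and where ZBED9, a zinc finger gene, lacked 7 of 16. Over the whole region, genes with a mean score under 1 lacked 3.18% (15 of 472 targets), genes of 1 to under 19 lacked 7.65% (42 of 549) and genes of 19 or more lacked 10.9% (100 of 920). Targets counted in overlapping genes enter more than once. These shares leave out genes with under 50% of their targets found, so they are not rates over all genes of the region.

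Genes differed widely in this share. In class III, VARS lacked 15 of 32 targets (46.9%), CLIC1, a chloride channel protein, 6 of 12, and BAG6, a chaperone for membrane proteins, 5 of 31. FLOT1, a protein of membrane rafts in class I, lacked 4 of 12. By comparison COL11A2 lacked 0 of 94, NOTCH4 0 of 42, TNXB 3 of 73 and all 11 class II HLA genes together 4 of 93. Among the high-scoring genes VARS2 lacked 0 of 53 and SKIV2L (mean 22.7) 0 of 27. Per the labels' protocols, parts that were highly transcribed in public K562 data were left out of the design, and repeats were omitted by the array maker. These steps and the difference between GENCODE releases 12 and 29 cannot be told apart for a single target.

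**Figure D4:**
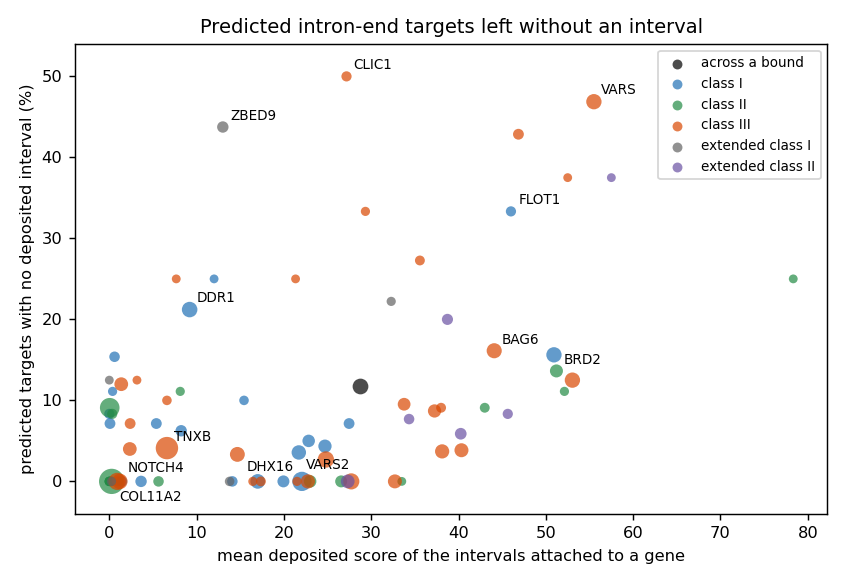
Share of predicted intron-end targets without a deposited interval (%) against the mean deposited score of a gene's attached intervals (linear axes), for the 88 attached genes with at least 8 predicted targets; point area grows with the number of targets and colour gives the sub-block. CLIC1 (6 of 12 targets) and VARS (46.9%) are among the highest, and 34 genes, COL11A2, NOTCH4 and VARS2 among them, lie at 0. The attachment rule let no gene exceed 50%.

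Both ends of introns were targeted about equally. Of 656 introns of at least 200 nt whose ends were both predicted as separate targets, 550 had an interval at both, 47 at the 5′ end alone, 47 at the 3′ end alone and 12 at neither. In the 550, the mean score was 16.7 at the 3′ end, where branchpoints lie, and 13.2 at the 5′ end, but the median difference was 0. The 3′ end was higher in 215 introns, the 5′ end in 141, and 194 were equal, 165 of them with both at 0. The order was the same for genes on the plus strand (19.9 against 15.7 over 197 introns) and on the minus strand (14.98 against 11.9 over 353). Of 35 genes with at least 5 such introns, 18 had the higher mean at the 3′ ends, 11 at the 5′ ends and 6 had equal means. Over all found targets at 1 end of an intron, paired or not, the median score was 5 at both ends. Above 0 scored 68.0% of those at 5′ ends and 64.6% of those at 3′ ends. Introns of a gene share their source and are not replicates, so this is a description.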

How the data were processed

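The deposited file lists the intervals of the capture probe design for all 3 K562 libraries. Its score is in a deposited field of whole numbers, and how the authors made it is not stated there or in the labels. The design took the 100 nt ends of GENCODE release 12 introns and dropped exons, highly transcribed parts and repeats, per the labels' protocols. The submitters' processing notes name hg19, Bowtie2, TopHat2 and bedtools. No sequencing reads were analysed, so no depth is known.

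Intervals wholly inside a block were counted. Positions are hg19 and 1-based. Gaps up to 1000 nt entered medians. Density is per Mb of block length (rest of chromosome 6: per Mb of its span). Genes were attached by spacing to GENCODE release 29 (GRCh38) with relative distances only, and no other place in the region might hold more than 0.8 of the matches. Tested on simulated lists with 30% of the targets dropped, 115 or more of 138 genes were attached, 0 at a wrong place. Named were the attached members of 9 gene groups, the 5 highest and 5 lowest gene means among genes with at least 8 intervals, and the 5 widest gaps and intervals. One gene, and a gap beside it, are not reported here. Members and groups were chosen with earlier results of these data known. Genes, windows and scores outside that rule (among them C6orf10, RGL2 and ZBED9) were named after their values were seen. Scripts ran in Python 3.11.15 with pandas 2.3.3, numpy 2.4.6 and, for plots, matplotlib 3.10.9.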

Additional observations from a re-analysis of the deposited data

Results flagged for a closer look

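Intervals carry running numbers along the chromosome, a field that none of the comparisons above uses, and 88 numbers were missing inside the MHC region. This is 4.46% of its numbers, against 1.48% on chromosome 6 and 1.24% in the whole list. Class III missed 57 (7.41%), extended class II 7 (6.31%), class I 15 (2.59%), extended class I 3 (2.52%) and class II 5 (1.28%). The 104 intervals beside the 57 places of missing numbers had a median score of 35 (quartiles 17.3 and 63), against 3 for the other 1780 (quartiles 0 and 19).

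Of the 88 numbers, 51 lay between the first and last interval of an attached gene and 37 lay outside such genes, the longest jump of 7 among them. VARS missed 11 numbers between its first and last attached interval and lacked 11 predicted targets there, BAG6 missed 5 and lacked 5, and CLIC1 missed 4 and lacked 4. The counts were equal in 14 of the 23 attached genes with missing numbers, more targets were lacking in 6 and fewer in 3. Another 26 genes lacked targets with no number missing. The 23 genes had a median mean score of 44.1 and none was under 14.7. No number was missing in the 40 genes with a mean score under 1, which lacked 12 targets inside their span, whereas 22 of the 57 genes of 19 or more had missing numbers. What removed the numbers was not tested.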

How the results depend on the processing

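Of 65 recomputed values, 57 stayed within 1.5 times (densities, gaps and counts) or within the 95% binomial interval of counting error (shares), 7 moved and 1 reversed. Some of the 57 could not change. The bounds of the whole region were not moved, so its values at moved bounds repeat the main ones. Leaving out COL11A2, which lies in class II, could not alter class III against class I. The share of the region's intervals scoring above 0 was 69.7% without COL11A2, and 28.1% of intervals scored 19 or more. The difference of class III from class I reversed to -0.75 points with bounds 100 kb higher. The difference of class III from class II was 39.2 points with bounds 100 kb lower, 29.5 points with bounds 100 kb higher and 17.4 points for scores of 19 or more. Genes attached by spacing numbered 29 with identical edges, 71 with at least 8 matching intervals and 118 with the basic transcripts. Identical edges and at least 8 intervals are stricter rules. Most of the 138 genes were attached only when edges could differ by 1 nt, and the source of this difference was not tested. Leaving out COL11A2 or C4A and C4B was chosen after the data were seen. Density as intervals per Mb (384) is in another unit and was not set against the main value. No paired analysis was possible because there is 1 group and no value per library, and replicates could not be left out for that reason. With no reads analysed, depth limits could not be given.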

Other observations

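Gene families outside the fixed groups were looked at after their values had been seen. The 7 attached TRIM genes, which encode proteins with a RING finger, differed along the region. TRIM27, in extended class I, scored 65, 32, 50, 33, 11, 12 and 23, and TRIM39 had a mean of 8.23. TRIM26 and TRIM10 had means of 1.43 and 1.00, TRIM15 and TRIM40 0.60 and 0.25, and all 8 intervals of TRIM31 scored 0. The 3 attached olfactory receptor genes had 2 of 19 intervals above 0 and the mucin genes MUC21 and MUC22 had 1 of 10, against 52.8% of the whole list. CYP21A1P scored at most 1 over 7 intervals and CYP21A2 had 1 score above 0 among 5 (a score of 4). Scores of such near-identical copies are uncertain.

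Where scores lay along a gene was examined only in TNXB and SLC44A4, after their values had been seen. Uneven scores along a gene are not particular to these 2 genes. Both lie on the minus strand, so their low-coordinate end is the 3′ end. In TNXB all 9 scores of 19 or more lay between 32009712 and 32012593 near that end. The 59 intervals outside that stretch scored at most 8, and 24 of them scored above 0. In SLC44A4, a choline transporter family gene, all 7 scores of 19 or more lay between 31831526 and 31833466, where no attached interval scored lower. The other 20 intervals had 2 scores above 0, the higher being 17. Whether overlapping transcripts account for these stretches was not tested.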
